A study of Arabidopsis thaliana with 11 samples.

Results

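The plastid genome of Arabidopsis thaliana carries, beside its photosynthesis genes, the genes for part of its own expression machinery. Probe sets of the Affymetrix ATH1 array that map to exactly 1 chloroplast gene were taken, leaving out every gene whose symbol starts with psa, psb, pet, atp or ndh, and also rbcL, rpl33 and rps18. This left 24 probe sets, 1 per gene, of 69 plastid probe sets with 1 gene and of 22746 plant probe sets on the array. They comprise 6 ribosomal proteins of the large subunit (rpl14, rpl16, rpl20, rpl22, rpl32 and rpl36), 7 of the small subunit (rps2, rps3, rps4, rps14, rps15, rps16 and rps19), 4 subunits of the RNA polymerase (rpoA, rpoB, rpoC1 and rpoC2) and 7 others (accD, ccsA, cemA, clpP, matK, ycf3 and ycf4). A further 8 plastid probe sets match genes listed at 2 loci of the plastid genome (rpl2, rpl23, rps7, ycf1, ycf2, ndhB and, with 2 probe sets, rps12), and were not members.

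The study asked how transcripts respond to the number of chromosome sets in the ecotype C24. It used whole plants at growth stage 1.02, raised on agar with Murashige and Skoog salts under long days. Total RNA of tetraploids, made by treating C24 with colchicine (4 chromosome sets, n = 3 arrays), of triploids with the title code TFE (3 sets, n = 3), of triploids with the title code TME (3 sets, n = 3) and of diploid C24 (2 sets, n = 2) was hybridised. Both triploid codes share a source label, a cross between tetraploid and diploid plants, and no label spells the codes out. The number of plants behind an array and the number of separate sowings are not given in the labels, so a p-value reflects array-to-array spread alone, possibly of technical origin. The titles number the arrays consecutively within each group, and no label says what these numbers mark. If they mark a handling order, that order and group cannot be told apart.

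Plastids keep a bacterial type of gene expression. A multi-subunit RNA polymerase, whose core is encoded by the rpo genes, transcribes most photosynthesis genes with the help of sigma factors made in the nucleus, while a phage-type polymerase of nuclear origin transcribes the rpoB gene cluster and accD and shares other genes. The plastid ribosome resembles that of bacteria, and its proteins are split between the plastid genome (rpl and rps genes) and the nuclear genome. Many plastid genes lie in clusters that are transcribed together and then processed to smaller RNAs. In seedlings, this machinery is needed before the photosynthetic complexes can be built. The tissue was read in bulk, so fewer plastids or green cells and less RNA in each of them cannot be told apart.

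Deposited values are linear array signals, scaled so that the trimmed mean of each array was the same; differences are therefore relative to the rest of the array. Over the 15075 probe sets kept, Spearman correlations lay at 0.942 to 0.973 among 10 arrays. They lay from 0.861 to 0.88 between triploid TFE replicate 3 and the others. Medians and counts without overlap over all 24 members that rest on that array are therefore given with and without it. Most values for classes and single genes are given with it only. All 24 members lay above the percentile 40 of all signals on every one of the 11 arrays, and the filter on dim probe sets removed none of them. Of the marker lists, 2 of 13 green-tissue loci (RCA, Rubisco activase, with signals of 4236 to 6785, and LHCB4.1, a light-harvesting protein, with 4353 to 6211) and 2 of 10 root loci (PYK10, a root beta-glucosidase, with 2666 to 4070.3, and EXPA7, an expansin of root hairs, with 7.79 to 55.1) had a named probe set, so transcripts of shoot and root were both present.

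For 22 of 24 members the mean was highest in triploid TFE, with rpoB and rpoC2 higher in triploid TME. All 24 had a lower mean in tetraploids than in triploid TFE, with a median log2 difference of -0.51 (median of all probe sets kept 0.0021, 50.2% of them higher). Of the 24, 2 fell, the ribosomal protein transcripts rps14 and rpl32, and none rose (limma, Benjamini-Hochberg adjusted p under 0.05; background 0.0862% of probe sets called lower and 0.471% called in either direction). The arrays of the groups did not overlap for 14 members, all lower in tetraploids, against 8.09% of all probe sets lower and 8.5% higher without overlap. All 24 were likewise higher in triploid TFE than in diploids, with a median of 0.46, where 50.4% of all probe sets were higher; 13 did not overlap, against 11.9%, and none passed the test (limma, 0 called, background 0%; 13 of 24 at an unadjusted p under 0.05, background 9.08%). Without triploid TFE replicate 3 the median was -0.50 in tetraploids versus triploid TFE, with 15 members lower without overlap (13.6% of all probe sets), and 0.45 in triploid TFE versus diploids, with 13 higher without overlap (19%).

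Between the triploid codes, 22 of 24 members were higher in TFE than in TME, with a median of 0.38 (50.1% of all probe sets higher) and 9 without overlap (7.29% of all probe sets, and 6.82% lower), and none was called (limma, background 0.0265%, of which 0.00663% higher and 0.0199% lower; 9 of 24 at an unadjusted p under 0.05, background 10.6%). Without triploid TFE replicate 3 the median was 0.34 in triploid TFE versus triploid TME, with 22 members higher and 10 higher without overlap (12.7% of all probe sets). In that fit none was called and 7 of 24 had an unadjusted p under 0.05 (limma). The remaining steps were smaller. In tetraploids versus diploids 11 of 24 were higher (51.1% of all probe sets), the median was -0.052 and none was without overlap (15.9% of all probe sets higher without overlap and 13.7% lower). In triploid TME versus diploids 21 were higher (49.5%) with a median of 0.16, and in tetraploids versus triploid TME 4 were higher (52%) with a median of -0.12. There rpoA, rps3 and rps19 were lower without overlap, where 6.59% of all probe sets were lower and 8.03% higher in that way. No member was called in these 3 comparisons (limma, backgrounds 0.829%, 0.126% and 0%; 1, 1 and 3 of 24 at an unadjusted p under 0.05, backgrounds 8.42%, 4.5% and 4.62%). Nor was any called for a slope over 2, 3 and 4 chromosome sets (limma, background 0.425%; 1 of 24 at an unadjusted p under 0.05, background 8.28%). The direction against diploids hung on single diploid arrays: the tetraploid median was -0.25 without diploid replicate 1 and 0.19 without replicate 2, and the triploid TME median -0.065 and 0.35. The triploid TFE median stayed above 0 either way, at 0.18 and 0.67, but without diploid replicate 1 only 19 of 24 members were higher and 2 had an unadjusted p under 0.05, against 24 and 19 without replicate 2. Comparisons that share a group share its arrays and are not independent.

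**Figure D1:**
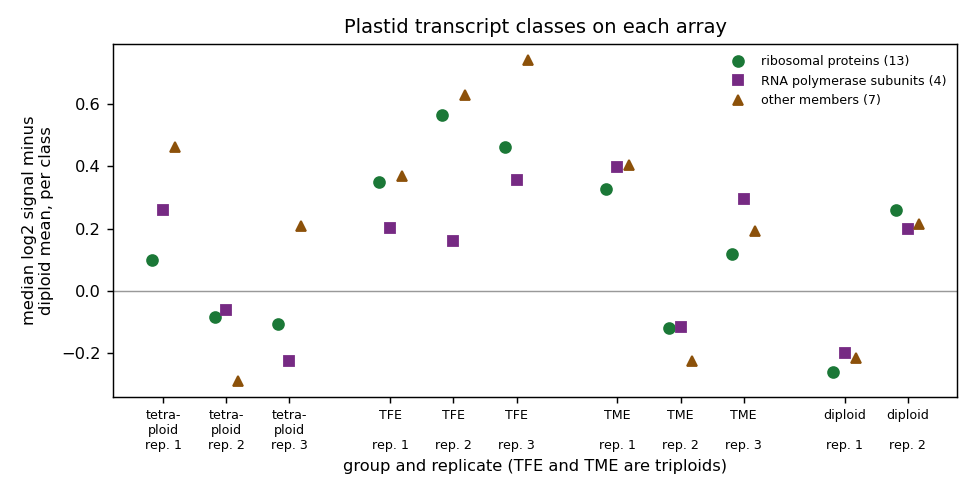
Median log2 signal of 13 ribosomal protein, 4 RNA polymerase and 7 other members on each of the 11 arrays, as the deviation from the mean of the diploid arrays (y axis); the x axis gives group and replicate. All classes lie above 0 on the 3 triploid TFE arrays, where the polymerase median is below the ribosomal protein median, while the diploid replicates 1 and 2 lie on opposite sides of 0.

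The level of spiked-in hybridisation controls, bacterial and phage RNAs added to every sample, moved with these differences. Its geometric mean was 249.8, 242 and 257 on the tetraploid arrays, 372, 594 and 627 on the triploid TFE arrays, 425, 272 and 312 on the triploid TME arrays and 157 and 321 on the diploid arrays. The median deviation of the 24 members from the diploid mean was 0.15, -0.14 and -0.028 in tetraploids, 0.35, 0.55 and 0.51 in triploid TFE, 0.37, -0.15 and 0.18 in triploid TME and -0.22 and 0.22 in diploids. The 2 arrays with the brightest controls, triploid TFE replicates 2 and 3, had the highest member medians, and the array with the dimmest controls, diploid replicate 1, the lowest. With the control level as a covariate the median difference was -0.029 for tetraploids versus triploid TFE, -0.059 for triploid TFE versus diploids and 0.027 for triploid TFE versus triploid TME. Then 14 of 24 members were lower in tetraploids than in triploid TFE, and 9 higher in triploid TFE than in diploids. Control levels did not overlap between triploid TFE and tetraploids or diploids. In these comparisons control level and group cannot be told apart. The actin 3-prime to 5-prime ratio, which reports on RNA integrity, was 0.308 to 0.403 in tetraploids, 0.559 to 0.92 in triploid TFE, 0.407 to 0.539 in triploid TME and 0.506 to 0.524 in diploids, and so did not overlap between triploid TFE and any other group. A second pair of actin control probe sets on the same arrays gave 1.54 to 2.3 in tetraploids and 1.2 to 2.92 in triploid TFE, which overlap. A GAPDH ratio was 0.882, 0.895 and 0.723 in tetraploids, 1.09, 1.36 and 1.53 in triploid TFE, 1.11, 0.971 and 0.989 in triploid TME and 0.913 and 1.12 in diploids, without overlap between tetraploids and triploid TFE and with overlap between triploid TFE and the other 2 groups. A second pair of GAPDH control probe sets gave 0.922 to 1.13 in tetraploids and 0.872 to 1.15 in triploid TFE, which overlap. Both ubiquitin ratios overlapped as well. They were 1.01 to 1.29 and 1.51 to 1.65 in tetraploids, and 0.968 to 1.6 and 1.58 to 1.9 in triploid TFE. The part of these ratios in the member differences was not tested.

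**Figure D2:**
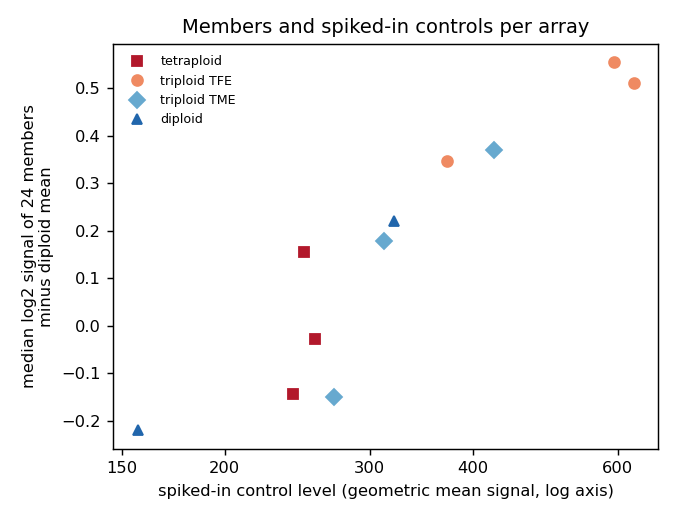
Median log2 signal of the 24 members minus the diploid mean (y axis) against the geometric mean signal of 18 spiked-in control probe sets (x axis, log scale), 1 point per array, coloured and shaped by group. Triploid TFE replicates 2 and 3 stand at the upper right, with controls at 594 and 627, and diploid replicate 1 at the lower left with 157.

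Ribosomal proteins of the large subunit are encoded by 6 members. Their median log2 difference was -0.66 in tetraploids versus triploid TFE (6 of 6 lower) and 0.32 in triploid TFE versus diploids (6 of 6 higher). rpl32 (locus ArthCp072) had signals of 554, 516 and 363 in tetraploids, 743, 809 and 849 in triploid TFE, 707, 549 and 635 in triploid TME and 536 and 558 in diploids. Every triploid TFE array was above every array of the other 3 groups, and the diploid arrays lay close together. rpl32 fell to 478 ± 102 (SD, n = 3) in tetraploids, against 801 ± 53.7 (SD, n = 3) in triploid TFE, differing by -0.77 ± 0.15 on the log2 scale (SE; adjusted p by limma = 0.0306), or 0.588 of the TFE level. The difference of triploid TFE from diploids was 0.55 ± 0.16 (adjusted p = 0.419). The tetraploid call was lost on leaving out replicate 2 or 3 of triploid TFE, replicate 3 of triploid TME, or replicate 2 or 3 of the tetraploids (limma, adjusted p = 0.0765, 0.065, 0.0545, 0.0566 and 0.129), with differences between -0.88 and -0.57 over all 22 alternatives.

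rpl20 had signals of 483, 329.6 and 417 in tetraploids, 578, 855 and 610.0 in triploid TFE, 642, 403 and 522 in triploid TME and 381 and 516 in diploids. All triploid TFE arrays lay above those of tetraploids and diploids, and triploid TME replicate 1 lay among them. The log2 difference was -0.73 ± 0.20 in tetraploids versus triploid TFE and 0.60 ± 0.22 in triploid TFE versus diploids, neither past the threshold (limma, adjusted p = 0.144 and 0.486). rpl22 had signals of 1284, 1512 and 1273 in tetraploids, 1848, 1633 and 1693 in triploid TFE, 1647, 1429 and 1726 in triploid TME and 1336 and 1806 in diploids. Its tetraploid arrays did not overlap with triploid TFE, and the difference of -0.35 ± 0.12 missed the threshold (limma, adjusted p = 0.259). The other 3, rpl14, rpl16 and rpl36, overlapped between tetraploids and triploid TFE, with differences of -0.73, -0.58 and -0.40. Against diploids, all 6 large-subunit transcripts had a lower mean in tetraploids, between -0.37 and -0.13, where 51.1% of all probe sets were higher. Every one of the 6 overlapped. Diploid replicate 2 was brighter than replicate 1 for all 6, by 0.058 (rpl32) to 0.81 (rpl36) on the log2 scale. Over all 13 ribosomal proteins the tetraploid-minus-diploid median was -0.35 without diploid replicate 1 and 0.087 without replicate 2.

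Among the 7 small-subunit members, rps14 (locus ArthCp020) had the largest differences between groups. Its signals were 44.6, 36.3 and 42.5 in tetraploids, 79, 106 and 90 in triploid TFE, 54.1, 44.8 and 41 in triploid TME and 45.1 and 30.7 in diploids. The lowest triploid TFE array was brighter than all 8 arrays of the other groups, which overlapped with each other. Some of those signals were close to the limit for dim probe sets. They were 30.7 on diploid replicate 2 and 36.3 on tetraploid replicate 2, where the percentile 40 was 27.4 and 26.9. rps14 fell to 41.1 ± 4.3 (SD, n = 3) in tetraploids, against 91.5 ± 13.4 (SD, n = 3) in triploid TFE, differing by -1.15 ± 0.22 on the log2 scale (SE; adjusted p by limma = 0.0306), or 0.451 of the TFE level. Triploid TFE exceeded diploids by 1.29 ± 0.25 and triploid TME by 0.97 ± 0.22, but neither passed over all probe sets (limma, adjusted p = 0.155 and 0.284). When the level of the spiked-in controls was added as a covariate, the tetraploid difference was -1.18 for rps14 and -0.57 for rpl32, without a call (limma, adjusted p = 1 for both, and 0 of all 15075 probe sets called). The rps14 call was also lost without triploid TFE replicate 2, triploid TME replicate 2 or tetraploid replicate 1, 2 or 3 (limma, adjusted p = 0.0919, 0.0551, 0.0909, 0.116 and 0.131), and it held without triploid TFE replicate 3 (adjusted p = 0.0391). Of the 24 members, rps14 was the only one dimmer on diploid replicate 2 than on replicate 1.

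rps3 was the steadiest member, with a pooled within-group SD of 0.12 on the log2 scale (range over members 0.12 to 0.51, median of all probe sets kept 0.24). Its signals were 1313, 1256 and 1279 in tetraploids, 1781, 1813 and 1862 in triploid TFE, 1463, 1346 and 1347 in triploid TME and 1149 and 1524 in diploids. The tetraploid arrays lay within 1256 to 1313, below all triploid arrays, and the triploid TFE arrays above all others. The log2 difference of tetraploids from triploid TFE was -0.50 ± 0.11, just short of the threshold (limma, adjusted p = 0.0565; 0.0246 to 1 over 22 alternatives, 4 of them past it). rps19 had signals of 1815, 2003 and 1834 in tetraploids, 2327, 3109 and 2849 in triploid TFE, 2847, 2214 and 2553 in triploid TME and 1775 and 2199.7 in diploids. Both triploid groups lay wholly above the tetraploids and the diploids, so that rps19 was the only member to separate triploid TME from diploids by array, where 12.5% of all probe sets did so. Its tetraploid differences were -0.54 ± 0.13 from triploid TFE and -0.42 ± 0.13 from triploid TME (limma, adjusted p = 0.0962 and 0.833). rps2, rps4 and rps16 were lower in tetraploids than in triploid TFE without overlap, as were 8.09% of all probe sets. Their differences were -0.64, -0.51 and -0.48, without a call (limma, adjusted p = 0.204, 0.212 and 0.279). rps15 overlapped at -0.23. Over the 7 small-subunit transcripts the median was -0.51 for tetraploids versus triploid TFE, 0.46 for triploid TFE versus diploids and -0.07 for tetraploids versus diploids.

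**Figure D3:**
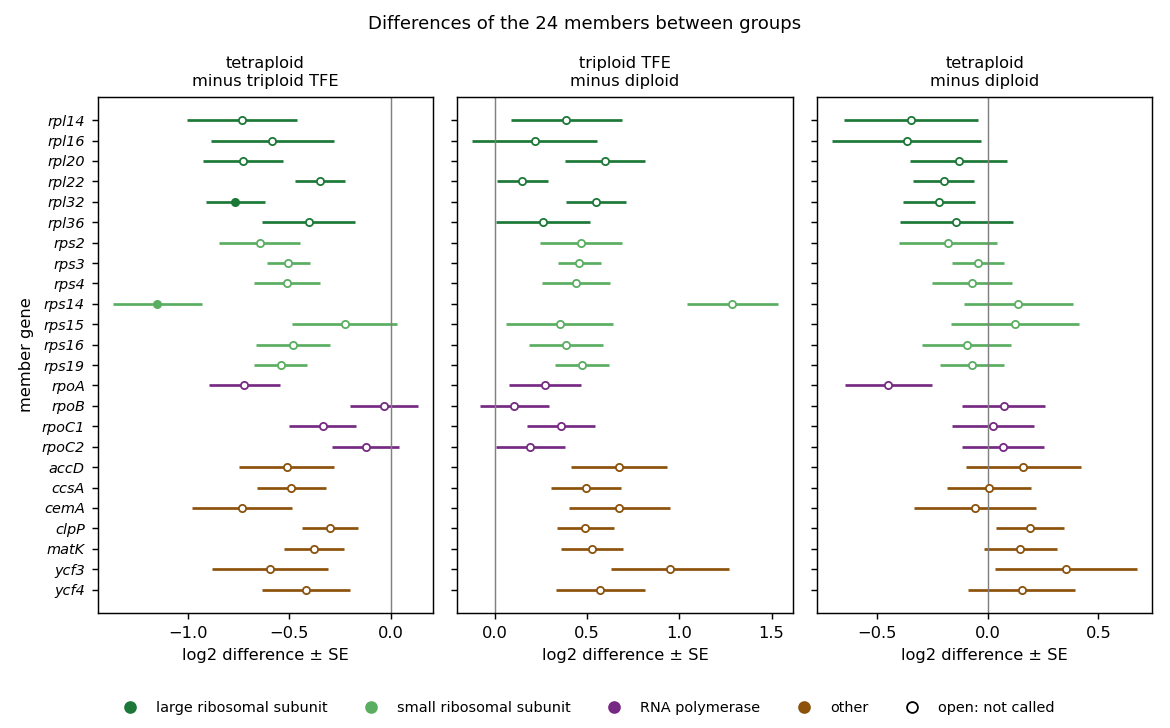
Log2 differences (x axis, points with SE bars from limma) of the 24 members, ordered by role, for tetraploid minus triploid TFE, triploid TFE minus diploid and tetraploid minus diploid; filled points passed the threshold. All points lie left of 0 in the first panel, where rpl32 and rps14 are filled, and right of 0 in the second.

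The RNA polymerase core has an alpha subunit (rpoA), which assembles the enzyme, and the beta, beta-prime and beta-double-prime subunits (rpoB, rpoC1 and rpoC2), which form the catalytic part. rpoA had signals of 728, 704 and 473 in tetraploids, 1063, 929.9 and 1098 in triploid TFE, 944, 843 and 962 in triploid TME and 675 and 1075 in diploids. All tetraploid arrays lay below all triploid arrays of either code, and diploid replicate 1 fell among the tetraploids. The log2 difference of tetraploids was -0.72 ± 0.18 from triploid TFE, -0.55 ± 0.18 from triploid TME and -0.45 ± 0.20 from diploids, with no call (limma, adjusted p = 0.101, 0.885 and 0.532). rpoA had the lowest tetraploid-minus-diploid value of all 24 members, and the lowest slope over chromosome sets, at -0.27 ± 0.12 per set (limma, adjusted p = 0.577). Its tetraploid-minus-diploid value was -0.79 without diploid replicate 1, -0.11 without diploid replicate 2 and -0.25 without tetraploid replicate 3.

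rpoB had signals of 426, 336 and 401 in tetraploids, 391, 417 and 377 in triploid TFE, 474, 311 and 483 in triploid TME and 315 and 428 in diploids. rpoC1 had 1277, 1017 and 842 in tetraploids, 1253, 1317 and 1333 in triploid TFE, 1362, 887 and 1161 in triploid TME and 896 and 1147 in diploids. rpoC2 had 423, 364 and 303 in tetraploids, 367, 377 and 437 in triploid TFE, 524, 334 and 477 in triploid TME and 316 and 373 in diploids. All groups overlapped for these 3 genes, except that rpoC1 was higher on each triploid TFE array than on both diploid arrays, and the triploid TFE arrays of rpoB spanned only 377 to 417. Tetraploids differed from triploid TFE by -0.033 for rpoB (95% interval -0.39 to 0.32), -0.34 for rpoC1 (-0.69 to 0.018) and -0.12 for rpoC2 (-0.48 to 0.23). These intervals are not adjusted for the number of genes, and all 3 include 0.

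**Figure D4:**
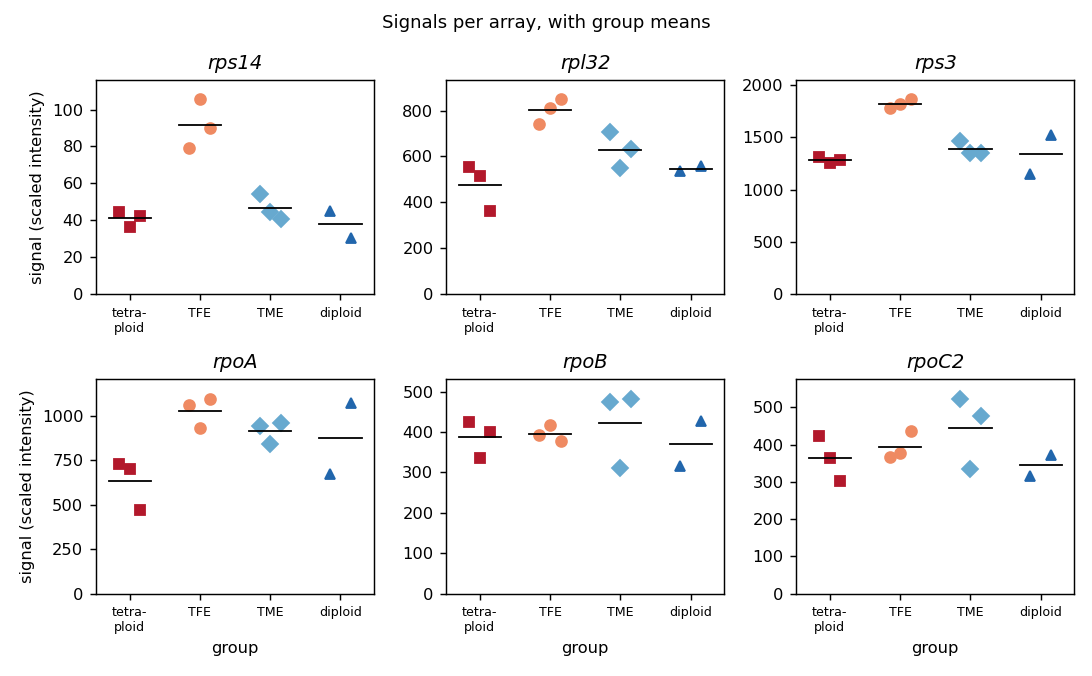
Signals (y axis, scaled intensity from 0) of 3 ribosomal protein genes, rps14, rpl32 and rps3, and 3 polymerase genes, rpoA, rpoB and rpoC2, by group (x axis), 1 point per array with the group mean as a bar. Triploid TFE lies above all other groups for these 3 ribosomal protein genes. The tetraploid arrays lie below every triploid array for rpoA, and the groups overlap for rpoB and rpoC2. The genes shown do not stand for their classes. Between triploid TFE and diploids, rps2 and rpl22 (not shown) overlapped, while the polymerase gene rpoC1 (not shown) did not.

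Ribosomal protein and polymerase transcripts were then set side by side, by the medians of their log2 differences. In tetraploids versus triploid TFE the 13 ribosomal protein transcripts had a median of -0.54 (13 of 13 lower, 9 without overlap) and the 4 polymerase transcripts -0.23 (4 of 4 lower, 1 without overlap; 8.09% of all probe sets lower without overlap), a gap of -0.31. In triploid TFE versus triploid TME the ribosomal proteins had 0.39 (13 of 13 higher, 5 without overlap) and the polymerase 0.049 (2 of 4 higher, 0 without overlap; 7.29% of all probe sets higher without overlap), a gap of 0.34. In triploid TFE versus diploids the values were 0.44 and 0.23. The same gap was -0.18 in tetraploids versus diploids, -0.083 in triploid TME versus diploids and -0.039 in tetraploids versus triploid TME. Per array, the ribosomal protein median minus the polymerase median, each as a deviation from the diploid mean, was -0.16, -0.023 and 0.12 in tetraploids, 0.15, 0.40 and 0.10 in triploid TFE, -0.069, -0.0023 and -0.18 in triploid TME and -0.061 and 0.061 in diploids. The triploid TFE arrays lay above all triploid TME arrays and overlapped with the tetraploids, whose replicate 3 exceeded TFE replicate 3. The gap is a description without a test. Its spread between replicates (pooled SD of the per-array values) was 0.13 for the triploid pair, and with the spiked-in controls as a covariate that gap was 0.19. The gap between tetraploids and triploid TFE was -0.31 with that covariate and -0.32 without triploid TFE replicate 3. Without the same array the gap in triploid TFE versus triploid TME was 0.33.

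The polymerase class was not uniform. With rpoA set aside, an alternative chosen after the values were seen, the gap was -0.42 in tetraploids versus triploid TFE and 0.46 in triploid TFE versus triploid TME. The gene order of the TAIR10.1 plastid annotation places rpoA near the ribosomal protein genes rpl36, rpl14, rpl16, rps3, rpl22 and rps19, while rpoB, rpoC1 and rpoC2 follow each other beside rps2. In tetraploids versus triploid TFE rpoA had -0.72, within the range of those 6 genes (-0.73 to -0.35). Members placed elsewhere, such as accD (-0.51) and matK (-0.38), lay in that range too. rpoA was below all 6 genes in tetraploids versus triploid TME (-0.55, against -0.42 to 0.11). The same held in tetraploids versus diploids (-0.45, against -0.37 to -0.045). In the remaining comparisons it lay within their range. At the other place, rps2 had -0.64 (95% interval -1.07 to -0.22), against -0.12 (-0.48 to 0.23) for its neighbour rpoC2. The 2 intervals overlap, and no difference between neighbours was tested.

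The 7 other members carried the highest class median in triploid TFE versus diploids, at 0.57 (7 of 7 higher, 6 without overlap, against 11.9% of all probe sets), and none was called (limma, background 0%). matK, the maturase that helps to splice plastid introns, had signals of 2228, 1915 and 2089.9 in tetraploids, 2379, 3015 and 2732 in triploid TFE, 2246, 1672 and 2578 in triploid TME and 1692 and 2069.6 in diploids. clpP, the plastid-encoded subunit of the Clp protease, had 5082, 4475 and 5119 in tetraploids, 5438, 6267 and 6365 in triploid TFE, 5668, 4313 and 4836 in triploid TME and 3609.5 and 5077 in diploids. For both genes the triploid TFE arrays lay above the tetraploid and diploid arrays and overlapped with triploid TME. The log2 difference of triploid TFE from diploids was 0.53 ± 0.17 for matK and 0.49 ± 0.15 for clpP (limma, adjusted p = 0.43 for both genes), and that of tetraploids from triploid TFE was -0.38 ± 0.15 and -0.30 ± 0.14 (limma, adjusted p = 0.295 and 0.364).

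accD, a subunit of the plastid acetyl-CoA carboxylase of fatty acid synthesis, had signals of 1103, 602 and 888 in tetraploids, 1176, 1159.7 and 1255 in triploid TFE, 1045, 549 and 1074 in triploid TME and 688 and 818 in diploids. Its triploid TFE arrays lay above all others, and its second replicates in tetraploids and in triploid TME were low. The differences were 0.67 ± 0.26 in triploid TFE versus diploids and -0.51 ± 0.23 in tetraploids versus triploid TFE (limma, adjusted p = 0.496 and 0.36). ccsA, needed to attach haem to c-type cytochromes, had signals of 3334, 2694 and 3065 in tetraploids, 3774, 4434 and 4556 in triploid TFE, 3237, 2808 and 3205 in triploid TME and 2252 and 4028 in diploids. The diploid arrays differed from each other by more than the tetraploid and triploid TFE means did, and triploid TFE overlapped with diploids (difference 0.49 ± 0.19, adjusted p = 0.496).

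cemA, a protein of the plastid inner envelope, had signals of 2296, 986 and 1805 in tetraploids, 2149, 2725 and 3203 in triploid TFE, 1924, 1423 and 1886 in triploid TME and 1441 and 1924 in diploids. ycf3, an assembly factor of photosystem I, had 541, 239 and 450.1 in tetraploids, 496, 694 and 583 in triploid TFE, 489, 237 and 409 in triploid TME and 252 and 365 in diploids. Both were higher in triploid TFE than in either triploid TME or diploids without overlap, and overlapped with tetraploids. ycf3 had the second largest value in triploid TFE versus diploids after rps14, 0.95 ± 0.32, against 0.67 ± 0.28 for cemA (limma, adjusted p = 0.477 and 0.511). ycf4, a second photosystem I assembly factor, had 0.57 ± 0.24 in triploid TFE versus diploids without overlap and -0.42 ± 0.22 in tetraploids versus triploid TFE with overlap. In tetraploids versus diploids the class had 6 of 7 means higher with a median of 0.15. The ribosomal proteins had 2 of 13 higher and -0.13, where 51.1% of all probe sets were higher. Every gene overlapped. The ribosomal protein median hung on single diploid arrays, at -0.35 without diploid replicate 1 and 0.087 without replicate 2. No difference between the 2 classes was tested.

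Replicates of a group did not move evenly over the members. On tetraploid replicate 2, 7 of 24 members lay more than 0.5 (log2) below the mean of tetraploid replicates 1 and 3, where 6.78% of all probe sets did: rpl16 at -1.30, cemA at -1.05, ycf3 at -1.04, rpl14 at -1.01, accD at -0.72, ycf4 at -0.66 and rps15 at -0.66. Within a single gene cluster, rps19, rpl22 and rps3 had 0.13, 0.24 and -0.046 on the same array beside the low rpl16 and rpl14. On the linear scale tetraploid replicate 2 had rpl16 at 0.405 and rpl14 at 0.496 of the mean of the other replicates. Triploid TME replicate 2 was dimmer than the mean of replicates 1 and 3 for 23 of 24 members (51.3% of all probe sets), with a median of -0.45. Diploid replicate 2 was brighter than replicate 1 for 23 of 24 (51.5%), with a median of 0.44. The spiked-in controls were also brighter on diploid replicate 2 (321 against 157) and dimmest of their group on triploid TME replicate 2 (272 against 425 and 312). Among the tetraploid arrays they were nearly equal, at 242 on replicate 2 against 249.8 and 257 on replicates 1 and 3. Without tetraploid replicate 2 the member median was -0.39 in tetraploids versus triploid TFE and 0.054 in tetraploids versus diploids.

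**Figure D5:**
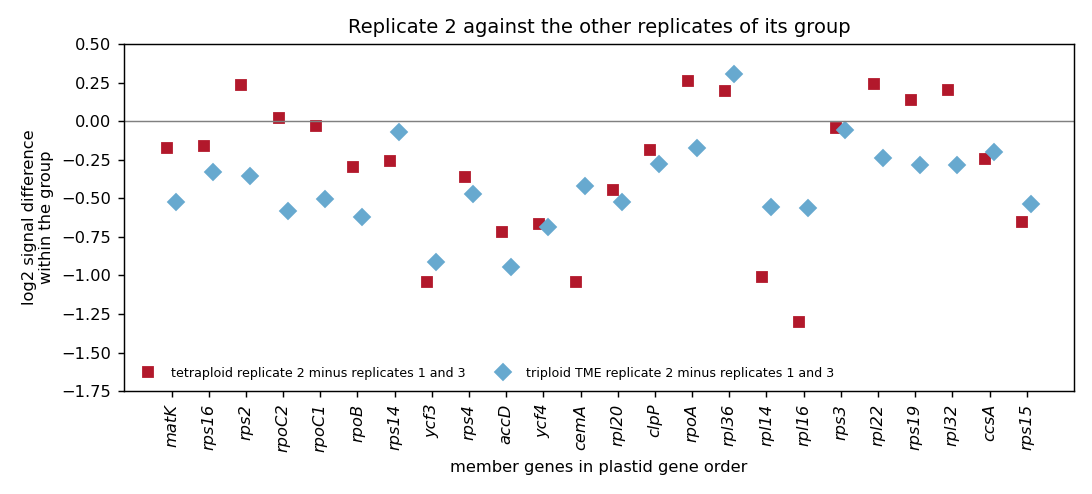
Log2 signal of replicate 2 minus the mean of replicates 1 and 3 of its group (y axis), for tetraploids and triploid TME, over the 24 members in the order of their genes along the plastid genome (x axis, evenly spaced). In tetraploids rpl14 and rpl16 lie at -1.01 and -1.30, beside rps3 at -0.046 and rpl22 at 0.24.

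The 45 photosynthesis and other genes outside the members had a median of -0.44 in tetraploids versus triploid TFE (42 lower, 5 called lower, background 0.0862%), 0.57 in triploid TFE versus diploids (45 higher) and 0.16 in tetraploids versus diploids (33 higher), against -0.51, 0.46 and -0.052 for the 24 members. The 8 probe sets with 2 gene copies had -0.65, 0.56 and 0.046. No difference between these sets and the members was tested.

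Nuclear genes for the same machinery were covered in part. Of 33 listed nuclear genes for plastid ribosomal proteins 9 had a named probe set, and none was called in any of the 6 comparisons (limma, background 0.471% in tetraploids versus triploid TFE; 2 of 9 at an unadjusted p under 0.05 there, background 13.5%). Their median was -0.14 in tetraploids versus triploid TFE (8 of 9 lower) and 0.10 in triploid TFE versus diploids (7 of 9 higher), against -0.54 and 0.44 for the 13 plastid-encoded ribosomal protein members. The largest values were -0.36 ± 0.12 for AT5G65220 in tetraploids versus triploid TFE and 0.39 ± 0.13 for AT4G17560 in triploid TFE versus diploids (limma, adjusted p = 0.219 and 0.464). Of 14 nuclear genes for Clp protease subunits, partners of clpP, 5 had a named probe set, with medians of 0.10 in tetraploids versus triploid TFE and -0.077 in triploid TFE versus diploids and no call (limma; in tetraploids versus triploid TFE background 0.471%, and 1 of 5 at an unadjusted p under 0.05, background 13.5%). The single named probe set among 9 sigma factor and phage-type polymerase genes was too dim to be kept, and the polymerase-associated proteins and nuclear acetyl-CoA carboxylase subunits had no named probe set. The green-tissue markers RCA and LHCB4.1 had -0.35 and -0.17 in tetraploids versus triploid TFE and 0.30 and 0.28 in triploid TFE versus diploids, and the root marker PYK10 had -0.017 and 0.23. The root hair marker EXPA7 had 1.20 ± 0.46 in tetraploids versus triploid TFE and -0.58 ± 0.52 in triploid TFE versus diploids (limma, adjusted p = 0.292 and 0.717). These signs are opposite to those of the members, but EXPA7 was dim. Its signals were 7.79 to 33.2 in triploid TFE, 27.3 to 31.2 in diploids and 32.6 to 55.1 in tetraploids. Triploid TFE thus overlapped with both groups. The lowest signal, 7.79, lay below the percentile 40 of every triploid TFE array (26.8 to 37.6). The differences without that array were not tested for EXPA7. The part of tissue make-up in the member differences was not tested.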

How the data were processed

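Total RNA of 11 whole-plant samples was biotin-labelled and read on 1 ATH1 array each. The deposited values are linear intensities (1 signal for each probe set); per the submitters' processing notes the authors used MAS5, with no version named. The mean trimmed by 2% at each end was 100.008 to 100.009 on every array. Of 22810 probe sets, 64 controls were set aside. Signals were floored at 2.279, the percentile 10 of the pooled plant values, and converted to log2, and 15075 probe sets above the percentile 40 of their array on at least 2 arrays were kept. No member value lay at the floor. limma 3.58.1 in R 4.3.3 was fitted to the group means of all 11 arrays with an intensity trend, with 2-sided tests and Benjamini-Hochberg adjustment over all probe sets kept; adjusted p-values given without a named alternative are from it. The fit was tested on simulated data. Names came from the platform annotation (13513 probe sets with 1 gene, 503 with several, 8730 unnamed), of which 13436 matched the TAIR10.1 gene table. Coordinates are left out because the genome build used to design the array is unknown here.

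The members and gene lists were chosen with earlier results of these data known. All members are accounted for. No label says what a replicate number marks. Between tetraploids and triploid TME, the deviations of same-numbered arrays from their group means correlated at 0.103, 0.121 and 0.14, all above the criterion of 0.1 for pairing. In no other pair of groups did every such correlation exceed it. Among differently numbered arrays, 5 of 30 pairs also exceeded it. Values on every array are given for the rpo genes, matK, clpP and accD, for called members, and for the 3 members of each other class with the smallest moderated F p-value. No level of one probe set is set against another. The number of arrays limits the precision; a deposited array holds no depth. Alternatives changed the normalization, scaling, floor, filter, variance model, array weights, arrays in the fit, control level, replicate block and each array in turn. Where an array is left out of the diploids, the lone array is taken to vary like the other groups.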

Additional observations from a re-analysis of the deposited data

Results flagged for a closer look

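Tetraploids and triploid TFE differed from each other, by the direct test between them, for 2 of 24 members (background 0.0862% of probe sets called lower and 0.471% in either direction). rps14 had a log2 difference of -1.15 and rpl32 of -0.77 (limma, adjusted p = 0.0306 for both). Both were lower on 3 of 3 tetraploid arrays than on all 3 triploid TFE arrays, as were 8.09% of all probe sets. With the spiked-in control level as a covariate 0 of 15075 probe sets were called. Control level and group cannot be told apart in this comparison. Over 22 alternatives rps14 was called in 13 and rpl32 in 11, with adjusted p from 0.0127 to 1 for rps14 and from 0.0167 to 1 for rpl32.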

How the results depend on the processing

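The count of 2 members called in tetraploids versus triploid TFE was 1 under quantile normalization and with arrays centred on the nuclear median, and 0 without the filter, without the intensity trend, with the arrays of the 2 groups alone and with the spiked-in control level as a covariate; with single arrays left out it ran from 0 to 3. That covariate also gave 9 members higher in triploid TFE versus diploids (24 in the fit reported), 13 higher in triploid TFE versus triploid TME (22) and 14 lower in tetraploids versus triploid TFE (24), with medians of -0.059, 0.027 and -0.029, and a ribosomal protein minus polymerase gap of 0.19 in triploid TFE versus triploid TME. With single arrays left out the median ran from -0.25 to 0.19 in tetraploids versus diploids and from 0.18 to 0.67 in triploid TFE versus diploids, and the gap from -0.087 to 0.10 in tetraploids versus triploid TME. The cause was not tested, and control level and group cannot be told apart between triploid TFE and tetraploids or diploids. No member was called in the other 5 comparisons or for the slope under any alternative. Replicate numbers of tetraploids and triploid TME met the criterion for pairing, but no label says that same-numbered arrays share more than a number. Over all groups the deviations of same-numbered arrays correlated at -0.19 to 0.14, and those of differently numbered arrays at -0.19 to 0.19. With the replicate block the median in tetraploids versus triploid TME was -0.12, with 0 members called and 3 at an unadjusted p under 0.05, as without it. With the replicate block 2 members were called in tetraploids versus triploid TFE, with a median of -0.51, and 77 probe sets in all, against 71 without it. Counts over all probe sets in tetraploids versus triploid TFE ran from 0 to 127 over the alternatives. Signals of the members lay above the percentile 40 of each array, above the limit set for dim probe sets. rps14 came close to it on diploid replicate 2, at 30.7 against 27.4.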
